A study of Homo sapiens with 6 samples.

Results

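The inhibitor of DNA binding (ID) genes and the bone morphogenetic protein (BMP) pathway are described here in RNA-seq data from libraries labelled MDA-MB-231, an established breast cancer cell line. The 10 members, ID1, ID2, ID3, ID4, BMP2, BMP4, BMP7, BMPR1A, BMPR2 and BAMBI, were taken by symbol, each matched to 1 Ensembl identifier among the 58302 genes of the files. Of these members, 8 passed the filter on low counts, as did 15075 of the 58302 genes, and ID4 and BMP2 did not.

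The series compares cells expressing control shRNA (n = 3) with cells expressing Smyca shRNA #1 (n = 3), to see which genes depend on the long noncoding RNA Smyca. Both groups are labelled MDA-MB-231 and carry an shRNA, the knockdown group rests on 1 shRNA, and the levels of CDH1 and SMAD4 given below go against the cell line label. Total counts were 16501085, 15560192 and 14999307 in control replicates 1 to 3 and 15714911, 16388020 and 15788258 in knockdown replicates 1 to 3. The study calls its repeats biological, but the labels do not say whether they came from separate cultures, so each p-value measures the spread between these libraries, which may be technical.

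BMPs are secreted ligands of the TGF-β superfamily that bring type I and type II serine/threonine kinase receptors together at the cell surface. The activated type I receptor phosphorylates SMAD1, SMAD5 and SMAD9, which join SMAD4, enter the nucleus and switch on target genes, and the ID genes are among the best known of these. ID proteins have a helix-loop-helix domain without a DNA-binding region, so they hold E proteins such as TCF3 and TCF12 away from DNA, and in breast cancer cells ID1 and ID3 are known for roles in growth and metastasis.

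MIR23AHG, which RefSeq also lists as Smyca, had 405, 317 and 343 counts in control replicates 1 to 3 and 165, 110 and 85 counts in knockdown replicates 1 to 3. All 3 knockdown libraries lay below all 3 control libraries, in the direction of the labels. The mean was 22.2 ± 2.75 normalized CPM, counts scaled to a common library size (SD, n = 3), in the control and 7.69 ± 2.51 in the knockdown. The log2 fold change, given throughout as control over Smyca knockdown, was 1.53 (SE 0.26), and its adjusted p of 0.111 (edgeR quasi-likelihood test, Benjamini-Hochberg over all genes tested) was above the threshold of 0.05. It was called under DESeq2 (adjusted p 3.71e-05), with no filter beyond 1 count (edgeR adjusted p 0.000646) and without control replicate 3 (edgeR adjusted p 0.0152), and the range over all alternatives reached 0.440.

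The FPKM and count columns of control replicate 2 disagree, and both were deposited for the same library. In that library 3357 genes had 0 counts and an FPKM above 0, and 2445 genes had the reverse, while the other 5 libraries had 0 such genes. Whole reads recovered from its FPKM column were close to control replicate 3, with a root mean square difference of 0.19 in log2 CPM over the genes tested. Its count column was closer to control replicate 1, with a difference of 0.30, than to control replicate 3, with a difference of 0.58. The variance between the recovered reads and control replicate 3 was 2.78 times that of counting noise, against 24.2 times for the count columns of control replicates 1 and 2 and 21.0 times for knockdown replicates 1 and 2. No pair of libraries agreed within counting noise, and each was kept as its own sample. The tests below use the count column, and the members that differ with the other column are given with both.

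The labelled cell line was checked against lists of marker genes, as levels in CPM summed over each list. The 8 mesenchymal breast cancer line markers summed to 1275, 1046 and 585 CPM in the control and 639, 709 and 973 in the knockdown. MSN was the most abundant of them, TWIST1 had 0 counts in each library, and SPARC had at most 11 counts. The 7 general epithelial markers summed to 8552, 8067 and 7207 CPM in the control and 7712, 9459 and 10524 in the knockdown, with KRT8 the most abundant and 0 of the 7 without counts. The most abundant gene weighs most in each sum. All 6 mesenchymal markers tested had a log2 fold change above 0 (control higher), 4 of them at an unadjusted p under 0.05 (10.4% of all genes were at such a p with the control higher), with a median of 0.82, and of the epithelial markers 5 of 7 had one above 0, while KRT8 was at -0.47 and KRT18 at -0.05. At an unadjusted p under 0.05 there were 2 of the 7 epithelial markers, against 19.2% of all genes. These were CLDN4, higher in the control (0.53), and KRT8, lower. edgeR called 0 markers of either list. VIM, the mesenchymal intermediate filament gene, had 305, 200 and 148 CPM in the control and 71.2, 105 and 130 CPM in the knockdown. CDH1, the gene of E-cadherin, had 300.1, 192 and 71.5 CPM in the control and 93.8, 77.6 and 172 CPM in the knockdown. MDA-MB-231 is known as a mesenchymal line with little E-cadherin, so the CDH1 levels go against the label in both groups. By Western blot, the paper reports more E-cadherin and less Vimentin after Smyca knockdown in MDA-MB-231 cells.

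Among lists for other cell types, the 7 intestinal epithelial markers summed to 348, 355 and 229 CPM in the control and 471, 514 and 435 in the knockdown. VIL1, at 220.5 to 501 CPM, gave most of that sum. CDX1 had 0 counts in each library, KRT20 and GPA33 had at most 6, LGALS4 at most 21 and CDH17 at most 67, and CDX2 was at 6.08 to 11.1 CPM. The 8 hepatocyte markers summed to 210.4, 237 and 94.3 CPM in the control and 259.9, 244 and 219 in the knockdown. HNF4A was the most abundant, at 65.4 to 194 CPM, followed by SERPINA1 at 26.3 to 74.2 CPM, while AFP, APOB, TTR and FGB had 0 counts in each library, APOA1 at most 1 and ALB at most 4. The 5 luminal breast markers, led by ERBB2, summed to 51.9 to 77.7 CPM with PGR at 0. The 5 fibroblast markers, led by COL1A1, summed to 10.5 to 31.4 CPM, and the 4 leukocyte markers, led by CD14, to 0.38 to 1.66 CPM with PTPRC at 0. VIL1 and HNF4A, genes of gut and liver epithelium, thus stood apart from most other genes of their lists. No cell type is assigned from these values, and their part in the results below was not tested.

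In GRCh38, with GENCODE release 44, ID1 (ENSG00000125968) lies at chr20:31605283-31606515 on the plus strand, BMP4 (ENSG00000125378) at chr14:53949736-53958761 on the minus strand and BMP7 (ENSG00000101144) at chr20:57168753-57266641 on the minus strand. The promoter sequences show how the ID genes and BMP4 differ just upstream of their start sites. RefSeq promoters on GRCh38.p14 were found for 8 of the 10 members, in 10 entries, and not for BMP2 and BMP7. The 250 bases before each start were searched on both strands for GGCGCC and CAGAC, short motifs linked to BMP and SMAD binding, for the SMAD palindrome GTCTAGAC, for the E-box CACGTG and for TATAAA. Capitals mark every match, and each run ends before the first base that an annotated exon of the same gene covers. ID1 is shown from chr20:31605039-31605282 (plus strand), ID3 from chr1:23559502-23559751 (minus strand), ID4 from chr6:19837120-19837369 (plus strand), and the most upstream of 3 BMP4 entries from chr14:53955051-53955300 (minus strand).
ID1: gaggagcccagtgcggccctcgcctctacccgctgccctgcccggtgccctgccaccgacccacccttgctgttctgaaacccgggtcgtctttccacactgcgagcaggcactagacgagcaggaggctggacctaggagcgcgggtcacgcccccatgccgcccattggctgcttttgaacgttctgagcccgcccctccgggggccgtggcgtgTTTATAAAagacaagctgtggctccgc
ID3: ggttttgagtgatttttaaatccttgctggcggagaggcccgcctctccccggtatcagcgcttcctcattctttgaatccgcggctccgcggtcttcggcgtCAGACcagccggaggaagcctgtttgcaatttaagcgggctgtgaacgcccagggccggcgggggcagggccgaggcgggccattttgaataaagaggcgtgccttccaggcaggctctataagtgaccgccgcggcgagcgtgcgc
ID4: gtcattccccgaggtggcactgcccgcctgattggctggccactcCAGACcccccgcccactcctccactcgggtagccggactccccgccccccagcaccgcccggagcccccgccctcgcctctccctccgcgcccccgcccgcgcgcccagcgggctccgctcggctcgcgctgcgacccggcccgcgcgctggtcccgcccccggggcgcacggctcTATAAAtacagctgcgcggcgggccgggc
BMP4: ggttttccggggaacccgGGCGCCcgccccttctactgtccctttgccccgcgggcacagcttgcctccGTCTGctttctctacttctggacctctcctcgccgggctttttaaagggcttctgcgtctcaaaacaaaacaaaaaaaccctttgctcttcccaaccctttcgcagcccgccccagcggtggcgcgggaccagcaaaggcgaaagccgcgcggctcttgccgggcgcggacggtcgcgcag

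In the ID1 window, TATAAA was found on both strands in 2 overlapping places, beginning 33 and 31 bases before the start. ID4 held 1 TATAAA and 1 CAGAC, ID3 held 1 CAGAC, and ID2 held none of the 5 motifs. The BMP4 entry shown held 1 GGCGCC and 1 CAGAC, another held 1 CACGTG and 1 CAGAC, and the remaining BMP4 entry held none of the 5 motifs. In the entry with CACGTG, the CAGAC lies in bases that an annotated BMP4 exon covers. BAMBI held 3 copies of GGCGCC and 2 of CAGAC, BMPR2 held 1 and 2, and BMPR1A held 1 TATAAA. Of 35116 promoters of the same length, 10.7% held TATAAA, 16.4% GGCGCC, 38% CAGAC, 6.34% CACGTG and 0.182% GTCTAGAC. A match describes these letters in this window and is not a site.

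By the call rule, a control over knockdown ratio of at least 1.5 or at most 0.66 with an adjusted p under 0.05, edgeR called 0 of the 8 members tested, against 4 of all 15075 genes (0.0265%). Those 4 genes, DUSP1, ZFP36, JUN and B4GALNT4, were higher in the control and are named because of their small number, after their values had been seen. With DESeq and the same limits, the study reports far more differentially expressed genes for this contrast. At an unadjusted p under 0.05 there were 3 of 8 members, ID1 higher and BMP4 and BMP7 lower in the control, against 2893 of all genes (19.2%), or 1575 higher (10.4%) and 1318 lower (8.74%). The groups of the same 3 members did not overlap, 1 with the control above and 2 with the control below, against 3746 of all genes (24.8%), of which 1865 had the control above (12.4%) and 1881 the control below (12.5%). The median log2 fold change of the 8 members was -0.09, beside 0.04 over all genes. With control replicate 2 taken from its FPKM column, 3 members were again at an edgeR unadjusted p under 0.05, against 3106 of 15190 genes. In that fit ID2, higher in the control, stood in place of BMP4 (edgeR unadjusted p 0.122). DESeq2 called 1 member, ID1, and 850 of all genes, and edgeR with no filter beyond 1 count called 1 member, BMP4, and 916 of 30409 genes. Without control replicate 3, edgeR called 1 member, BMP4, and 1628 of all genes. Without control replicate 1, knockdown replicate 1 or knockdown replicate 2, it called 0 of all genes, and without control replicate 2 or knockdown replicate 3 it called 2, with 0 members called in each of these fits.

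**Figure D1:**
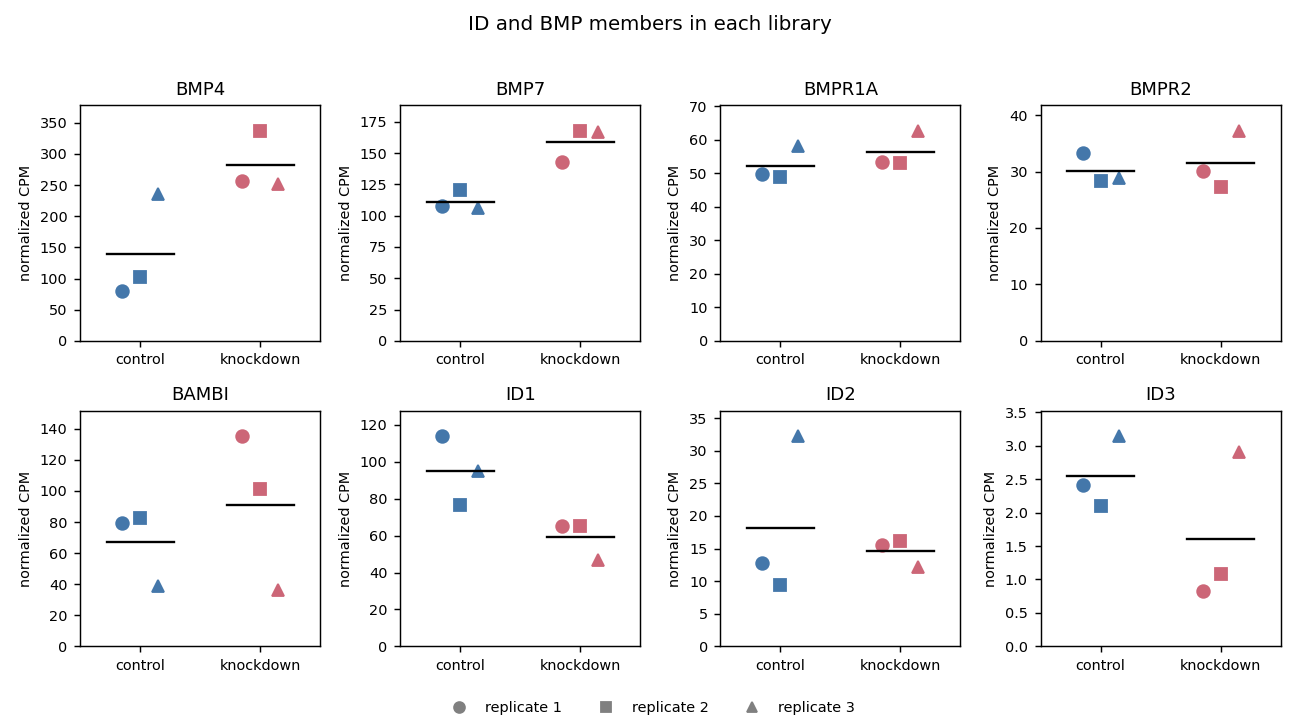
Normalized CPM (vertical axes, from 0) of the 8 members tested, in 3 control shRNA libraries (blue) and 3 Smyca shRNA #1 libraries (red), with symbols for the replicate and black lines for group means. The groups do not overlap for BMP4, BMP7 and ID1, while BAMBI is lowest in replicate 3 of both groups.

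Among the ligands, BMP4, which signals through BMPR1A and BMPR2, had 80.0, 102 and 235 CPM in control replicates 1 to 3 and 256, 337 and 252 CPM in knockdown replicates 1 to 3. Control replicate 3 lay just below the lowest knockdown library and far above the other 2 control libraries, and the groups did not overlap. The mean was 139 ± 84.1 CPM (SD, n = 3) in the control and 282 ± 48.0 CPM in the knockdown. Its log2 fold change was -1.02 (SE 0.37, 95% interval -1.86 to -0.18, edgeR adjusted p 0.193). Without control replicate 3 it was -1.64 with an edgeR adjusted p of 0.00524, where the range over all alternatives was 0.00524 to 0.494, and with no filter beyond 1 count it was -1.06 (edgeR adjusted p 0.00916). From the reads behind the FPKM column, control replicate 2 had 225 CPM, near control replicate 3, and the log2 fold change was -0.65 (edgeR adjusted p 0.365). In bulk RNA, fewer cells with a transcript and less of it in each cell cannot be told apart.

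BMP7, a ligand that also forms heterodimers with BMP4, had 107, 120.5 and 106 CPM in control replicates 1 to 3 and 143, 168 and 167 CPM in knockdown replicates 1 to 3. The 3 knockdown libraries lay above the 3 control libraries, and the gap between the groups was smaller than the range of the knockdown libraries. The mean was 111 ± 8.06 CPM (SD, n = 3) in the control and 159 ± 14.0 CPM in the knockdown. The log2 fold change was -0.52 (SE 0.14, 95% interval -0.84 to -0.19, edgeR adjusted p 0.131), a control over knockdown ratio of 0.699, which lies inside the limits of 0.66 and 1.5. DESeq2 gave an adjusted p of 0.0282 with a log2 fold change of -0.53, also inside those limits, and the adjusted p reached 0.440 over all alternatives. From its FPKM, control replicate 2 had 107 CPM, and the log2 fold change was -0.59. BMP2, the ligand closest to BMP4, had 1 count in knockdown replicate 2 and 0 in the other 5 libraries, under the 3 counts that a count of 0 allows. This floor is 0.185 to 0.198 CPM and covers counting error only.

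The files give a length for each gene through the ratio of counts to FPKM, so levels of different genes are compared per kilobase. On that scale the mean level over 6 libraries was 184 CPM per kilobase for BMP4 and 109 for BMP7, against 1.34 for BMP6 and 1.47 for BMP8B. These were the 4 of 14 BMP ligands that passed the filter. The BMP4 level was 0.810, 0.920 and 2.42 times that of BMP7 in control replicates 1 to 3 and 1.95, 2.19 and 1.65 times in knockdown replicates 1 to 3. BMP4 was thus the lower of the pair in control replicates 1 and 2 and the higher in the other libraries. From the reads behind its FPKM column, control replicate 2 had BMP4 at 2.29 times BMP7, which turns the order there.

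Among the receptors, the type I receptor BMPR1A had 49.8, 48.9 and 58.1 CPM in control replicates 1 to 3 and 53.3, 53.1 and 62.7 CPM in knockdown replicates 1 to 3. The groups overlapped, with replicate 3 the highest of each. Its log2 fold change was -0.11 (SE 0.15, 95% interval -0.44 to 0.23, edgeR adjusted p 0.714), and it ran from -0.20 without control replicate 3 to -0.04 without knockdown replicate 3. Taken from its FPKM, control replicate 2 had 55.7 CPM and the log2 fold change was -0.06. The type II receptor BMPR2 had 33.2, 28.3 and 28.9 CPM in the control and 30.2, 27.2 and 37.2 CPM in the knockdown. The groups overlapped here as well, with the lowest and the highest library both in the knockdown. The log2 fold change was -0.07 (SE 0.17, 95% interval -0.46 to 0.33, edgeR adjusted p 0.860), and its sign turned when knockdown replicate 3 was left out (0.06) and with library totals in place of TMM (0.0029). With control replicate 2 from its FPKM, that library was the lowest, at 23.5 CPM, and the log2 fold change was -0.16.

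BAMBI, a pseudoreceptor that lacks the kinase domain and blocks receptor complexes, had 79.4, 82.9 and 39.2 CPM in control replicates 1 to 3 and 135, 101 and 36.2 CPM in knockdown replicates 1 to 3. Replicate 3 was the lowest library of both groups, and the groups overlapped. The log2 fold change was -0.44 (SE 0.45, 95% interval -1.46 to 0.59, edgeR adjusted p 0.622). It was -0.82 without knockdown replicate 3, -0.04 without knockdown replicate 1, -0.17 without control replicate 3 and -0.78 when control replicate 2 came from its FPKM. MSX2, a homeobox gene that responds to BMP, was also lowest in replicate 3 of each group, with 20.2, 22.0 and 5.38 CPM in the control and 42.9, 26.7 and 8.06 CPM in the knockdown. From the reads behind its FPKM column, control replicate 2 had 42.2 CPM of BAMBI and 6.77 CPM of MSX2, near control replicate 3.

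Among the targets, ID1 had 114, 76.7 and 94.8 CPM in control replicates 1 to 3 and 65.3, 65.1 and 46.6 CPM in knockdown replicates 1 to 3. Each control library lay above each knockdown library, and the nearest pair was control replicate 2 and knockdown replicate 1. The mean was 95.1 ± 18.5 CPM (SD, n = 3) in the control and 59.0 ± 10.7 CPM in the knockdown. The log2 fold change was 0.69 (SE 0.20, 95% interval 0.23 to 1.14, edgeR adjusted p 0.140). Under DESeq2 it was 0.67 with an adjusted p of 0.0483, where the range over all alternatives was 0.0483 to 0.440. The reads behind the FPKM column gave 99.3 CPM in control replicate 2, a log2 fold change of 0.79 and an edgeR adjusted p of 0.0964.

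ID2 had 12.8, 9.41 and 32.2 CPM in control replicates 1 to 3 and 15.5, 16.2 and 12.1 CPM in knockdown replicates 1 to 3. Control replicate 3 stood above the other 5 libraries, and the groups overlapped. The log2 fold change was 0.31 (SE 0.42, 95% interval -0.64 to 1.26, edgeR adjusted p 0.714), and without control replicate 3 it turned to -0.41 (edgeR adjusted p 0.278, range over the alternatives 0.236 to 0.917). The reads behind the FPKM column gave 34.6 CPM in control replicate 2 in place of 9.41, and a log2 fold change of 0.85 (edgeR unadjusted p 0.0464, adjusted p 0.236). ID3 had 2.41, 2.09 and 3.14 CPM in control replicates 1 to 3 and 0.825, 1.08 and 2.91 CPM in knockdown replicates 1 to 3, from 13 to 49 counts. Knockdown replicate 3 lay among the control libraries, so the groups overlapped, and the log2 fold change was 0.67 (SE 0.50, 95% interval -0.46 to 1.80, edgeR adjusted p 0.488). It was 1.40 without knockdown replicate 3 (edgeR adjusted p 0.160, range over the alternatives 0.160 to 0.789), 0.35 without knockdown replicate 1 and 0.45 without knockdown replicate 2. From its FPKM, control replicate 2 had 2.72 CPM of ID3, and the log2 fold change was 0.77. ID4 had 0 counts in each library, so its level was not detectable at this depth.

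Per kilobase, the ID genes stood in the order ID1, ID2, ID3 in each library. ID1 was 8.99, 8.22 and 2.97 times ID2 in control replicates 1 to 3 and 4.25, 4.05 and 3.87 times in knockdown replicates 1 to 3. The share of ID family counts that fell in ID1 was 88.2%, 86.9% and 72.9% in the control and 80.0%, 79.0% and 75.6% in the knockdown. From the reads behind its FPKM column, control replicate 2 had ID1 at 2.90 times ID2 and an ID1 share of 72.7%, near control replicate 3. ID2 overlaps an antisense lncRNA, ID2-AS1 (chr2:8666636-8681864, minus strand), and ID4, at 0 counts, overlaps LNC-LBCS (chr6:19323428-19839080, minus strand). BMP4 overlaps ENSG00000287156 (chr14:53954671-53962234, plus strand), and BMP7 holds BMP7-AS1 (chr20:57214872-57215866, plus strand). The strand setting of the counting was not given in the sources used here, so reads of these genes and their antisense partners cannot be told apart.

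**Figure D2:**
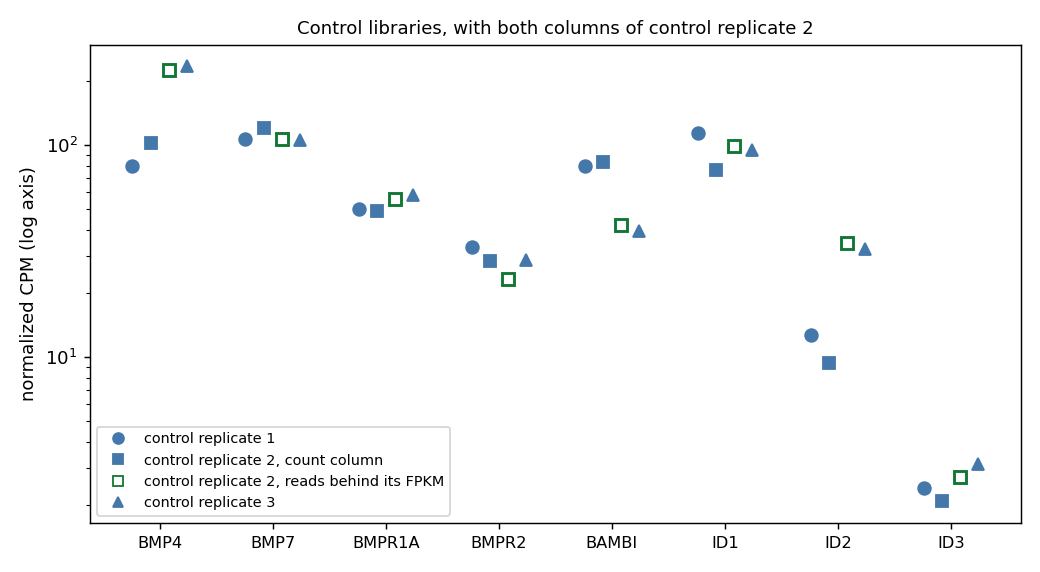
Normalized CPM (log axis) of the 8 members in control replicates 1 and 3 and in control replicate 2 by its count column (filled square) and by the reads behind its FPKM column (open square), each scaled in its own fit. For BMP4, BAMBI and ID2 the open square lies near control replicate 3 and the filled square near control replicate 1.

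By likeness of profile, the 5 genes closest to ID1 among 10471 genes with a mean of at least 100 counts were MAPK8IP3, WASHC1, PLEKHN1, FBXL2 and PLK3. Their root mean square difference from ID1 in centred log2 CPM over 6 libraries was 0.054 to 0.101. For ID3, among 10472 genes, they were PTPRS, GPCPD1, MARCKS, SLCO5A1 and DOCK5, at 0.0673 to 0.141. ID3 itself, at 13 to 49 counts, is under the limit of 100. Over 6 libraries some genes always come closest, and shared regulation was not tested.

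The other genes of the pathway were listed by role, 62 beyond the members, of which 31 passed the filter. With the members, 39 of 72 were tested, and edgeR called 0 of them, with 12 at an unadjusted p under 0.05, 7 higher and 5 lower in the control, against 19.2% of all genes. The groups of 12 of the 39 did not overlap, 7 with the control above and 5 with the control below, against 24.8% of all genes. The median log2 fold change of the 39 was 0.17, beside 0.04 over all genes. DESeq2 called 4 of the 39, ID1, ENG, HEY1 and RUNX2, against 850 of 15075 genes. Without control replicate 3, edgeR also called 4, BMP4, ENG, HEY1 and RUNX2, against 1628 of all genes tested there.

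Among ligand-processing proteases, PCSK6 had 19.3, 17.5 and 15.3 CPM in the control and 23.7, 22.5 and 19.5 CPM in the knockdown, a log2 fold change of -0.33 (SE 0.18, edgeR adjusted p 0.338). The groups did not overlap, with control replicate 1 just below knockdown replicate 3. FURIN, which cleaves BMP precursors, had a log2 fold change of -0.06 with overlapping groups. BMP1, which cleaves BMP antagonists, was the 1 protease of 4 tested at an unadjusted p under 0.05, beside 19.2% of all genes, with a log2 fold change of 0.47 (SE 0.20, edgeR adjusted p 0.242) and overlapping groups, and PCSK5 had 0.84 (SE 0.42, edgeR adjusted p 0.319), also with overlap. With control replicate 2 taken from its FPKM column, BMP1 was at 0.42 and no longer under that p, and PCSK5 was at 0.27.

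Of 11 receptors and co-receptors, 9 were tested, 5 of them higher and 4 lower in the control. The groups of 3 of the 9 did not overlap, each with the control above, beside 12.4% of all genes with the control above and 24.8% either way, while RGMA went the other way. ENG, a co-receptor known from endothelial cells, had 8.21, 5.66 and 4.67 CPM in the control and 3.05, 2.03 and 2.97 CPM in the knockdown, a log2 fold change of 1.20 (SE 0.33, edgeR adjusted p 0.129). ACVR1, a type I receptor, had 11.2, 8.06 and 7.17 CPM in the control and 4.57, 5.89 and 4.75 CPM in the knockdown, a log2 fold change of 0.79 (SE 0.27, edgeR adjusted p 0.173). BMPR1B, the type I receptor most like BMPR1A, had 6.17, 6.95 and 7.43 CPM in the control and 4.51, 3.74 and 4.29 CPM in the knockdown, a log2 fold change of 0.71 (SE 0.25, edgeR adjusted p 0.176). All 3 were low beside BMPR1A, at 2.20, 4.90 and 2.27 CPM per kilobase over 6 libraries against 11.4. RGMA, a co-receptor, had 22.5, 35.3 and 24.1 CPM in the control and 60.3, 54.2 and 28.3 CPM in the knockdown, a log2 fold change of -0.80 (SE 0.30, edgeR adjusted p 0.197), at 14.7 CPM per kilobase. Its groups overlapped through control replicate 2 and knockdown replicate 3. Taken from its FPKM, control replicate 2 had 24.2 CPM, the groups did not overlap, with the knockdown above, and the log2 fold change was -1.02.

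Of the signalling SMADs, SMAD1 had 10.3, 11.8 and 14.5 CPM in the control and 16.4, 16.4 and 20.1 CPM in the knockdown, a log2 fold change of -0.53 (SE 0.21, edgeR adjusted p 0.214). The groups did not overlap. SMAD5 had a log2 fold change of -0.03, with overlapping groups. SMAD4, the partner shared by BMP and TGF-β signals, had 14, 9 and 11 counts in the control and 9, 10 and 9 counts in the knockdown and did not pass the filter. Its level was 0.332 CPM per kilobase over 6 libraries, beside 15.3 for SMAD1, 16.4 for SMAD5 and 0.206 for SMAD9 at the same depth. MDA-MB-231 is known to carry an intact SMAD4, so the SMAD4 level goes against the label. In assays other than this RNA-seq, the paper describes Smad4 protein in MDA-MB-231 cells by Western blot and immunoprecipitation.

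Of 6 inhibitors at or below the receptor, SMURF2, a ubiquitin ligase, was the one whose groups did not overlap, beside 24.8% of all genes. It had 72.4, 49.7 and 50.3 CPM in the control and 45.6, 40.9 and 45.0 CPM in the knockdown, a log2 fold change of 0.39 (SE 0.18, edgeR adjusted p 0.281), or 0.19 without control replicate 1. SMAD6 and SMAD7, inhibitory SMADs, had log2 fold changes of 0.25 and 0.36 with overlapping groups. With control replicate 2 taken from its FPKM column, SMAD6 was at 0.45 (edgeR unadjusted p 0.0458, adjusted p 0.235) and SMAD7 at 0.42, still with overlap. Of 16 secreted antagonists, FSTL3, TWSG1 and NBL1 were tested and their groups overlapped, while noggin (NOG) had 1 count in all.

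Of 12 BMP-responsive genes outside the ID family, 9 were tested, 7 higher and 2 lower in the control, beside 8047 higher and 7028 lower of all 15075 genes. HEY1, a transcriptional repressor, had 5.31, 4.49 and 4.99 CPM in the control and 2.10, 1.20 and 2.38 CPM in the knockdown, a log2 fold change of 1.38 (SE 0.33, edgeR adjusted p 0.122). RUNX2, a transcription factor of bone, had 22.1, 13.8 and 17.2 CPM in the control and 8.64, 4.62 and 8.12 CPM in the knockdown, a log2 fold change of 1.31 (SE 0.30, edgeR adjusted p 0.114). The groups of both did not overlap, with the control above, as for 12.4% of all genes, and those of the other 7 did. Under DESeq2 the adjusted p was 0.0120 for HEY1 and 0.00253 for RUNX2, where the ranges over all alternatives reached 0.440 for both.

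Of the E proteins that ID proteins bind, TCF3 had 532, 499 and 506 CPM in the control and 668, 826 and 560.2 CPM in the knockdown, a log2 fold change of -0.42 (SE 0.17, edgeR adjusted p 0.231), or -0.27 without knockdown replicate 2. The groups did not overlap. TCF12 had a log2 fold change of 0.23 with overlapping groups, or 0.08 with control replicate 2 taken from its FPKM column. TCF3 was at 321 CPM per kilobase over 6 libraries, against 69.1 for ID1.

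**Figure D3:**
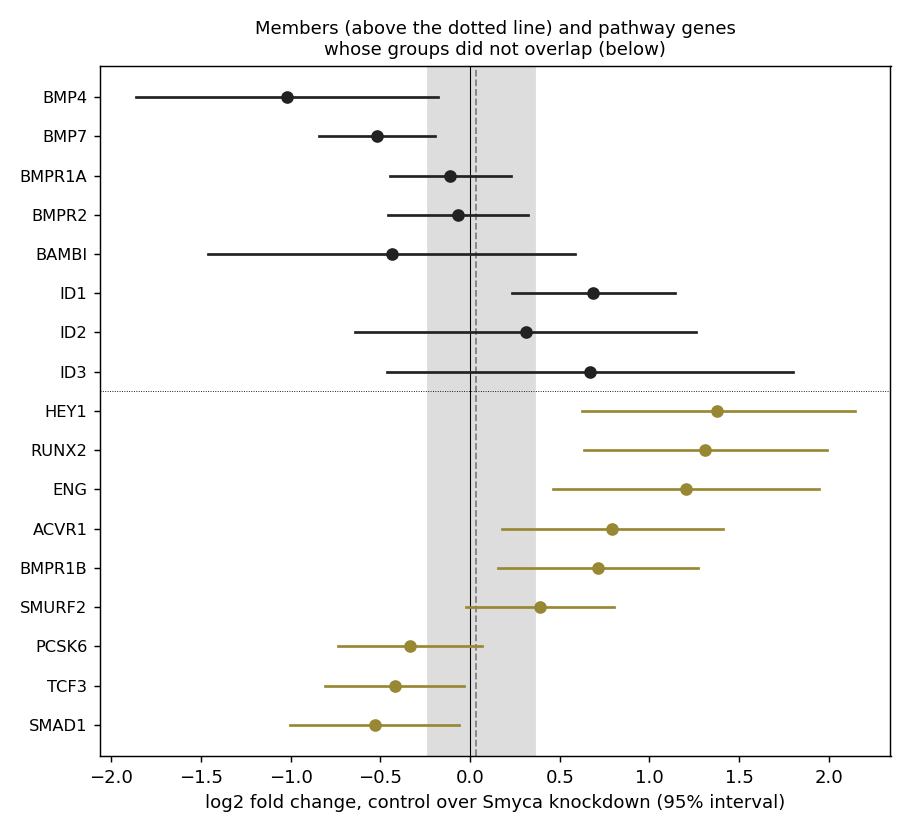
Log2 fold change, control over Smyca knockdown, with 95% intervals derived from the edgeR fit (3 against 3 libraries), for the 8 members and for the 9 other pathway genes whose groups did not overlap. The dashed line is the median of all 15075 genes and the grey band their middle quartiles, -0.23 to 0.36. BMP4 and BMP7 lie below 0 and ID1 above it, and none of the 17 genes was called.

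**Figure D4:**
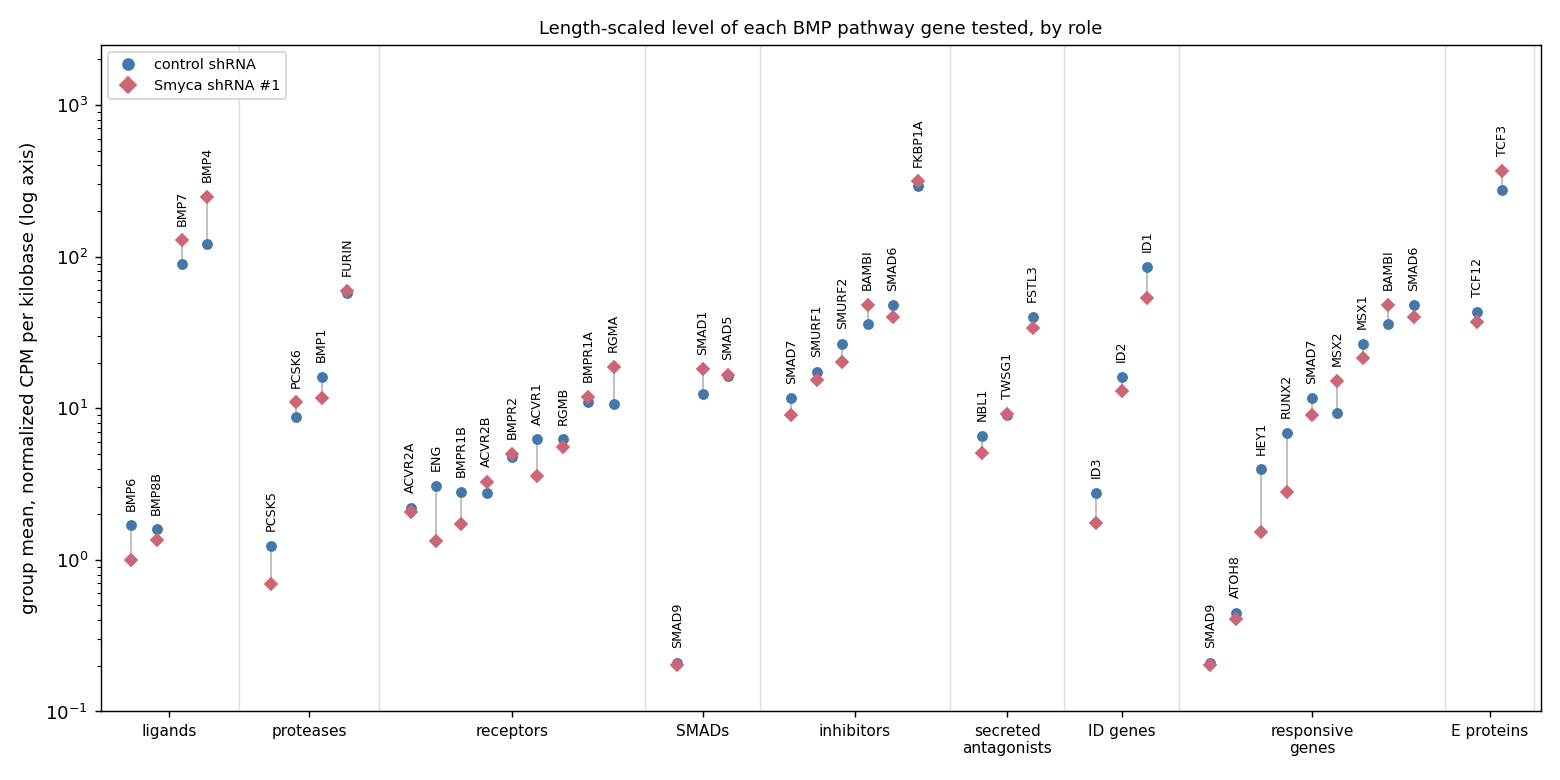
Group mean level in normalized CPM per kilobase (log axis) of each pathway gene that was tested, by role, for control shRNA (circles) and Smyca shRNA #1 (diamonds), with genes of 2 lists shown in both. BMP4 and BMP7 stand above the other ligands, and ID1 above ID2 and ID3.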

How the data were processed

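The 6 libraries, labelled MDA-MB-231, were made after rRNA removal with a strand-specific kit. The authors mapped paired reads to GRCh38 (TopHat2 2.0.12 in the submitters' notes) and used HTSeq for counting. The annotation release and strand setting were not given in the sources used here. The authors deposited raw counts per gene, which entered each test. The deposited FPKM values gave gene lengths and, for control replicate 2, recovered reads (each within 0.01 of a whole number).

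Symbols were found for 57532 of 58302 identifiers, and coordinates are from GENCODE release 44. In R 4.3.3, edgeR 4.0.16 was run with filterByExpr (minimum count 10), TMM factors and its quasi-likelihood test, and p-values were adjusted by Benjamini and Hochberg's method across the 15075 genes that passed. The study's DESeq was replaced by edgeR. A call needed an adjusted p under 0.05 and a control over knockdown ratio of 1.5 or more, or of 0.66 or less. The biological coefficient of variation was 25.2%. Intervals are 95%. The code was tested on simulated counts.

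Named genes were the members, pathway-list genes that were called or whose groups did not overlap, others of those lists that passed the filter, MIR23AHG, and for ID1 and ID3 the 5 most alike genes with a mean of at least 100 counts (0.5 CPM added before logs). Outside this rule, the 4 genes called, the marker genes and 2 pathway genes under the filter, SMAD4 and NOG, were named after their values were seen. Genes under the filter are given as counts or levels, with no test. The members and lists were chosen with earlier results of these data known. The alternatives were RLE size factors, library totals, a filter of 1 count in all, a filter of 10 counts per library, DESeq2 1.42.0, the replicate number as a block, each library left out, reads recovered from FPKM in control replicate 2, and other call thresholds.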

Additional observations from a re-analysis of the deposited data

Results flagged for a closer look

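The FPKM column of control replicate 2 holds signal outside the counts used for the tests: 3357 genes there had 0 counts and an FPKM above 0. The reads behind that column put BMP4 at 225 CPM and ID2 at 34.6 CPM in control replicate 2, where the count column gave 102 and 9.41 CPM. Which column belongs to that library was not tested.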

How the results depend on the processing

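The alternatives gave 234 log2 fold changes, for the 8 members tested, the 9 other pathway genes whose groups did not overlap and MIR23AHG. Of these, 217 kept their direction and their side of the threshold, 14 were newly called and 3 reversed. The 3 were BMPR2 with library totals (0.0029), BMPR2 without knockdown replicate 3 (0.062) and ID2 without control replicate 3 (-0.41). Outside these genes, FSTL3 (from 0.25 to -0.03) and SMAD9 (from 0.06 to -0.08) reversed with control replicate 2 taken from its FPKM. With 1 library left out, BMPR2 lay between -0.17 and 0.062 and ID2 between -0.41 and 0.62. The number of genes called was 8 with library totals, 916 with no filter beyond 1 count, 850 with DESeq2, 10 with control replicate 2 taken from its FPKM, 8 at an adjusted p under 0.1, and 0 to 1628 with 1 library left out, against 4. The number of members called was 1 with no filter, 1 with DESeq2 and 0 to 1 with 1 library left out, against 0. The number of pathway genes called was 4 with no filter, 4 with DESeq2 and 0 to 4 with 1 library left out, against 0. The causes were not tested. Those recovered reads leave out 996 genes without a length.

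With the replicate block, 0 genes, 0 members and 0 pathway genes were called. Deviations of same-numbered libraries from their group means had correlations of 0.061, 0.084 and -0.014. Control replicates 1 and 3 and knockdown replicate 3 correlated better with another number than with their own. With so few libraries, and control replicate 2 differing between its columns, these correlations cannot show whether a number marks a shared batch. By root mean square difference in log2 CPM, control replicate 3 was 0.65 and 0.58 from control replicates 1 and 2, themselves 0.30 apart. Knockdown replicate 3 was 0.51 and 0.465 from knockdown replicates 1 and 2, themselves 0.32 apart. By its FPKM column, control replicate 2 was 0.19 from control replicate 3.

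At few counts, as for ID3, counting error is large, and BMP2 and ID4 lay under the floor of 3 counts.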
